A study of Mus musculus with 24 samples.

Results

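The G2/M and mitosis genes are those that a cell switches on after it has copied its DNA, to enter mitosis, pull the chromosomes apart and divide. They were taken from a list of 44 gene symbols, and 43 were measured, out of 18194 genes in all. Ccnb1 was not analysed here. Where a gene had several probe sets, the one with the highest mean over all arrays stood for it. The series is of the liver of male B6C3F1 mice, a hybrid strain, that were 7-10 weeks old when they arrived. Mice received either diethylhexylphthalate (DEHP), a plasticiser and non-genotoxic carcinogen, at 1150 mg/kg/day or the same volume of its vehicle, corn oil, by oral gavage. Gavage (10 ml/kg) was repeated at intervals of 24 h over 3 days. RNA of the 2, 8, 24 and 72 h livers was hybridised to 24 arrays, 3 for either compound at each time. Nothing in the labels ties an array to its own animal, so the p-values measure only the spread between arrays.

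Cdk1 with cyclins A and B drives entry into mitosis, Foxm1 and the MuvB complex switch on transcription of the genes in G2, and the spindle checkpoint holds chromosome separation until every kinetochore is attached. The adult liver divides little, and DEHP and other activators of the nuclear receptor PPARα are known to make hepatocytes of rats and mice enter the cell cycle. In whole liver, more cells in G2 or mitosis and more RNA per such cell cannot be told apart.

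The promoters of many of these genes carry short elements that are known to tie them to the cell cycle. The CHR (cell cycle genes homology region) has the letters TTTGAA and is bound by the MuvB complex, and CCAAT is bound by NF-Y. Both were searched on both strands (TTCAAA and ATTGG on the other), in 250 bases before and 50 after each start in RefSeq (GRCm38.p6), and the motifs can share an end base. Of the 43 genes, 37 matched a window. The other ones were Ccna2, Aurkb, Foxm1, Kif20a, Pbk and Tpx2. TTTGAA was in a window of 28 of the 37 genes (75.7%), against 20.2% of the 27025 RefSeq gene symbols with a window. CCAAT was found for 29 (78.4% against 41.1%) and both for 25 (67.6% against 9.0%). Among the 6 genes that rose at 72 h and had a window, 4 held both motifs. A match describes the letters only. The 120 bases upstream of the start are given below, with matches in capitals: first 3 genes with a match of each motif, then 3 genes that rose at 72 h (Mad2l1 without a match; in Hmmr and Spc25 TTTGAA lies after the start, which is not printed), then both Cks genes, whose differences at 2 and 8 h were the lowest of the list.
Cdk1 (chr10:69352913-69353032, minus strand): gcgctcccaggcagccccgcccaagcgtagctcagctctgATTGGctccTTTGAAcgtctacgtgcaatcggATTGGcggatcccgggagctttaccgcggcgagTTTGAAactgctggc
Ube2c (chr2:164769809-164769928, plus strand): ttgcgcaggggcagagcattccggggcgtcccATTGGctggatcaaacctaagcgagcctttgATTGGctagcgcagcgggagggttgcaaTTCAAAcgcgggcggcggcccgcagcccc
Cdc20 (chr4:118437344-118437463, minus strand): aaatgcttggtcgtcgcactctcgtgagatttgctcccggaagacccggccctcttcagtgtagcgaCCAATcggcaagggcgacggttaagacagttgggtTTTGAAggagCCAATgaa
Hmmr (chr11:40733438-40733557, minus strand): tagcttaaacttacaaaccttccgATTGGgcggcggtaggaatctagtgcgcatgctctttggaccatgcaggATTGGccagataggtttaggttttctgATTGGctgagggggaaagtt
Spc25 (chr2:69206214-69206333, minus strand): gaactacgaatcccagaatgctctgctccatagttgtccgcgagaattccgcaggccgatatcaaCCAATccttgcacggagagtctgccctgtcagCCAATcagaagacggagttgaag
Mad2l1 (chr6:66535101-66535220, plus strand): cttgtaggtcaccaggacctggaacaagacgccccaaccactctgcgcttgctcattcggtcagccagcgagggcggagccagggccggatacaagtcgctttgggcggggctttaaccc
Cks1b (chr3:89418292-89418411, minus strand): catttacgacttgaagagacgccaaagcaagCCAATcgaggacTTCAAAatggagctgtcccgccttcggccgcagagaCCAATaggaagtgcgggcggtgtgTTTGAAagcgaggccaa
Cks2 (chr13:51645112-51645231, plus strand): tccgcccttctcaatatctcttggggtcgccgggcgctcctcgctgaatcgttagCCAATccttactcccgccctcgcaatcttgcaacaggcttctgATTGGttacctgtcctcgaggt

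The hepatocyte markers were strong in every group: the mean log2 signals of Alb, Apoa1 and Ttr lay between 14.19 and 14.49 in the 8 groups, near the top of the scale (the table ends at 14.55). At 72 h the 7 measured hepatocyte markers had means of -0.10, -0.05 and -0.03 on the DEHP arrays, below 0.04 to 0.09 in corn oil, and 1 was called lower with and without DEHP replicate 1, the transcription factor Hnf4a (-0.46 ± 0.11, adjusted p = 0.0221). Array medians lay between 6.46 and 6.55, and arrays of a group correlated with r from 0.9892 to 0.996 over all probe sets. In the titles, 1 corn oil array and 1 DEHP array of 8 h carry the same number, 14, and leaving both out is among the alternatives. DEHP exposure was visible on all 3 DEHP arrays at 72 h: the mean of 7 responder genes (Cyp4a14, Ehhadh and others, centred on the 24-array mean) was 1.07, 0.91 and 0.80 there and between -2.28 and -1.28 on corn oil arrays. Most mitosis genes were dim. Their mean signals lay at a median percentile of 30.5 among all genes, and 16 of 43 were above the 40th percentile.

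At 72 h, 7 of the 43 genes rose with DEHP and 0 fell (16.3%; all genes: 4.18% called, 1.13% higher, 3.05% lower). A gene was called where its limma p, adjusted by the Benjamini-Hochberg method over all 18194 genes, was under 0.05. They were the kinetochore subunit Spc25, the spindle protein Hmmr, the checkpoint genes Mad2l1 and Ttk, Aurkb and Birc5 of the chromosomal passenger complex, and cyclin Ccnb2. The median difference over the 43 genes was 0.33 (log2, DEHP minus corn oil), against -0.03 over all genes, and 41 of 43 were above 0 (95.3%, against 42.3% of all genes). All 3 DEHP arrays lay above all 3 corn oil arrays for 12 genes (27.9%, against 10.1% of all genes) and below them for 0 (18.1%). At an unadjusted p under 0.05, 25 of 43 differed, 24 of them upwards, against 21.6% of all genes in either direction.

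Most of this rise lay on a single array, DEHP replicate 1. With each gene centred on its 24-array mean, the mean of the 43 genes was 0.75 on that array, 0.17 on replicate 2 and 0.04 on replicate 3. Corn oil arrays at 72 h were at -0.06, -0.13 and 0.05, so replicate 3 lay within their range. Replicate 1 was the highest of all 24 arrays for 33 of the 43 genes (76.7%), against 3.7% of all genes. It exceeded the mean of replicates 2 and 3 by at least 0.5 (log2) in 25 genes, which 0.962% of all genes did. The SD among the 3 DEHP arrays at 72 h had a median of 0.34 over the mitosis genes and 0.10 over all genes. In the other 7 groups the mitosis genes' median SD was 0.10 to 0.20. The limma standard errors (SE) pool the spread of all 8 groups. For genes led by replicate 1 they can therefore be too small at 72 h, and the p-values too low. When only the arrays of 72 h were fitted, the members called were Hmmr, Cenpe and Spc25.

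**Figure D1:**
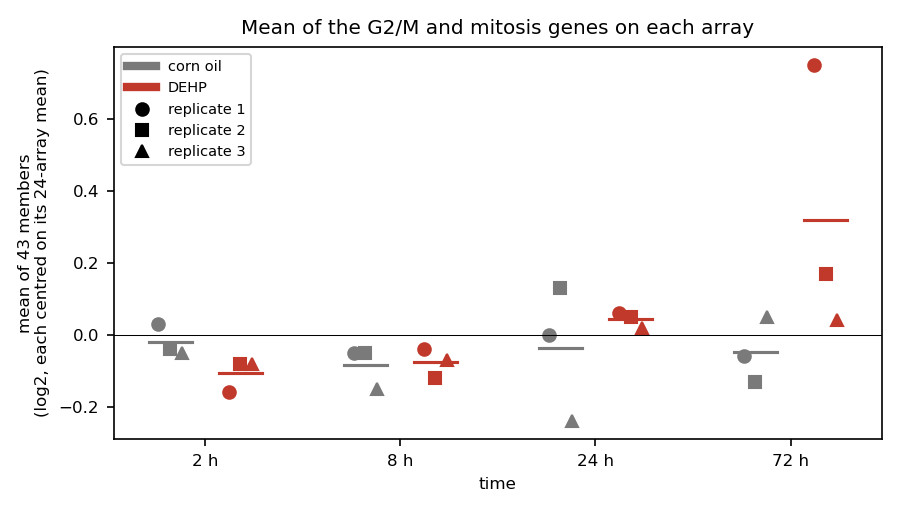
Mean log2 signal of the 43 measured G2/M and mitosis genes on each of 24 arrays (points; each gene centred on its 24-array mean), by time, compound and replicate number, with bars at group means. DEHP replicate 1 at 72 h stands at 0.75, and the other 2 DEHP arrays at 0.17 and 0.04.

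Without DEHP replicate 1, 1 gene was called at 72 h, Spc25 (0.67 ± 0.16 SE, limma adjusted p = 0.0271), or 2.33% of the genes against 3.11% of all genes called in that fit (0.934% higher). The median difference was then 0.10, and 33 of 43 were above 0 (76.7%, against 39.5% of all genes). Replicates 2 and 3 were both above all 3 corn oil arrays in 14 genes (32.6%, against 14.9% of all genes). Each gene's distance from its corn oil mean had a median of 0.736 on replicate 1, 0.121 on replicate 2 and 0.111 on replicate 3, and 42, 34 and 32 genes lay above 0. Leaving out other arrays of 72 h also moved the count: it was 11 without DEHP replicate 3, 4 without DEHP replicate 2 and 1, again Spc25, without corn oil replicate 2. Spc25 was called in all 6 of these fits.

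**Figure D2:**
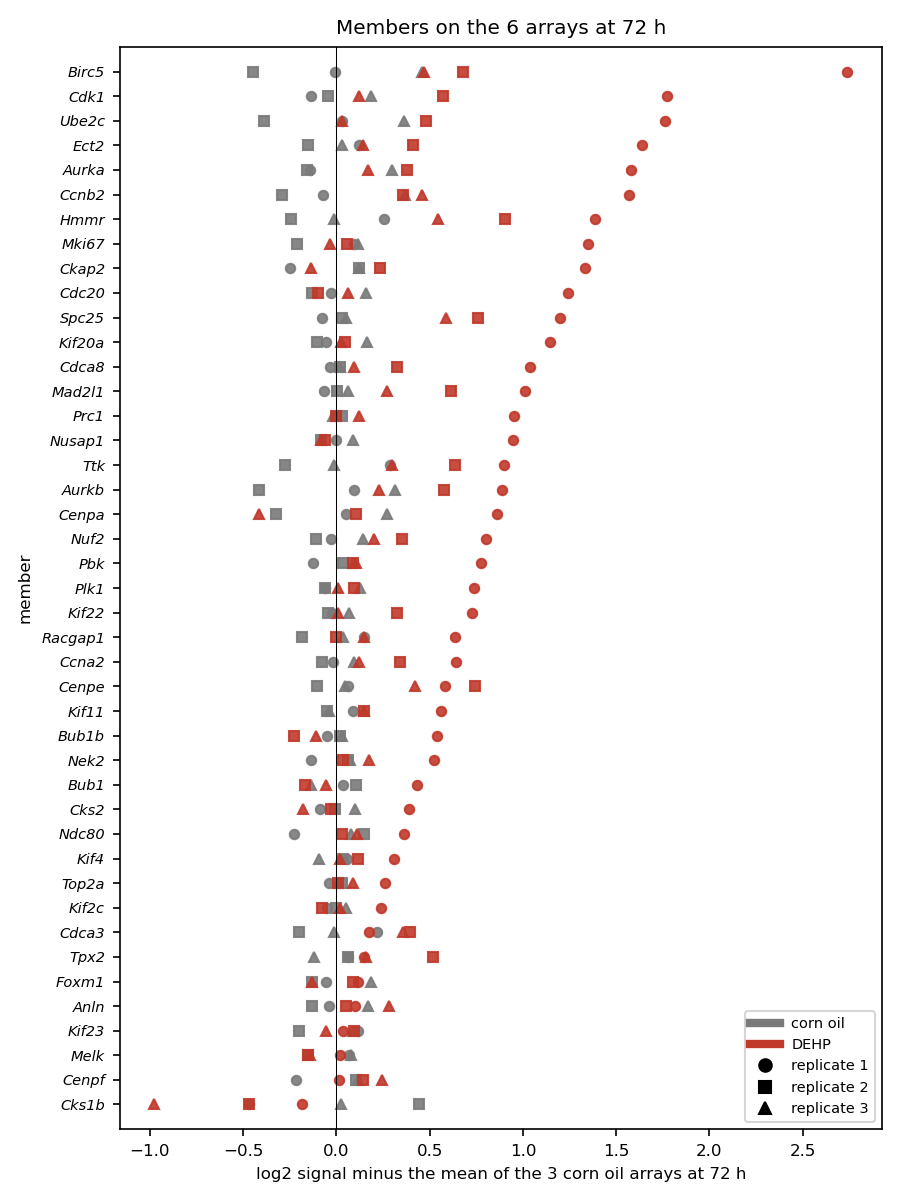
Log2 signal of each member on the 6 arrays at 72 h minus its mean on the 3 corn oil arrays, ordered by DEHP replicate 1 (circles, red). Replicate 1 lies far to the right for most members, up to 2.74 for Birc5, while replicates 2 (squares) and 3 (triangles) stay near the grey corn oil points for many.

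Among the regulators and kinases of mitosis (11 genes), the median difference at 72 h was 0.28, and 1 rose. Cdk1, the kinase that starts mitosis, had log2 signals of 7.02, 7.11 and 7.34 on the corn oil arrays and 8.93, 7.73 and 7.28 on DEHP replicates 1 to 3. Its DEHP array 3 lay inside the corn oil range, and the difference of 0.82 ± 0.24 was not called (adjusted p = 0.0565). Without replicate 1 it was 0.35 ± 0.16. Ccnb2, a B-type cyclin that activates Cdk1, had 6.18, 5.96 and 6.62 in corn oil and 7.82, 6.61 and 6.71 with DEHP, so the groups overlapped. It rose by 0.79 ± 0.22 (adjusted p = 0.0462), and was at 0.41 ± 0.18 without replicate 1 (adjusted p = 0.189). The A-type cyclin Ccna2 had groups apart, with 7.06, 7.00 and 7.17 against 7.72, 7.42 and 7.20, at a difference of 0.37 ± 0.12 (adjusted p = 0.0748). Plk1, a kinase of mitotic entry and spindle assembly, stood out on replicate 1 alone, with 6.52, 6.52 and 6.71 in corn oil and 7.32, 6.68 and 6.59 with DEHP (0.28 ± 0.13, adjusted p = 0.196). Aurka, the centrosome kinase, followed the same order of arrays at 7.35, 6.15 and 5.94, against 5.63, 5.61 and 6.07 in corn oil (0.71 ± 0.23, adjusted p = 0.0803). Foxm1, the transcription factor that drives many of the others, differed little on the probe set used. It had 7.79, 7.71 and 8.03 in corn oil and 7.96, 7.93 and 7.71 with DEHP, a difference of 0.03 ± 0.10. Dimmer probe sets of Foxm1 were at 0.11, 0.18 and 0.02. That at 0.18 had 5.68, 5.35 and 5.68 in corn oil and 6.19, 5.62 and 5.42 with DEHP. The kinases Nek2, Pbk and Melk had differences of 0.24, 0.33 and -0.09. A dimmer probe set of Nek2 rose by 0.70 (adjusted p = 0.0247 over all probe sets), with 5.87, 5.81 and 5.44 in corn oil and 6.46, 6.46 and 6.30 with DEHP. Still dimmer probe sets of Nek2 were at 0.49 and -0.01 and were not called. That at 0.49 was led by replicate 1, with 5.09, 4.92 and 5.29 in corn oil and 6.39, 5.42 and 4.97 with DEHP.

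Checkpoint and anaphase genes (7) had a median difference of 0.40, and 2 rose. Mad2l1, which blocks the anaphase-promoting complex while kinetochores are unattached, had 6.93, 7.00 and 7.06 in corn oil and 8.01, 7.61 and 7.27 with DEHP, with no overlap. It rose by 0.63 ± 0.15, or 1.55-fold (adjusted p = 0.0192), and stood at 0.45 ± 0.14 without replicate 1 (adjusted p = 0.0862). The checkpoint kinase Ttk had 6.47, 5.91 and 6.17 against 7.08, 6.82 and 6.48, groups that were barely apart, and rose by 0.61 ± 0.17 (adjusted p = 0.0399). Without replicate 1 it was at 0.47 ± 0.18 (adjusted p = 0.142). Its second probe set was at -0.09. Ube2c and Cdc20, which serve the anaphase-promoting complex as E2 enzyme and activator, were among the genes led by replicate 1. Ube2c had 6.77, 6.35 and 7.10 in corn oil and 8.50, 7.22 and 6.77 with DEHP (0.75 ± 0.28, adjusted p = 0.119). Cdc20 had 7.57, 7.47 and 7.76 against 8.84, 7.50 and 7.66, and its difference of 0.40 was -0.02 without replicate 1. Dimmer probe sets of Cdc20 were at -0.09 and 1.66. That at 1.66 had 4.99, 4.64 and 5.96 in corn oil and 9.32, 5.91 and 5.36 with DEHP. On the probe sets used, differences for the checkpoint genes Bub1 and Bub1b were 0.07 each, and -0.11 and -0.17 without replicate 1. Dimmer probe sets of Bub1b were at 0.25 and 0.27, and that of Bub1 was at 0.15. Those at 0.25 and 0.15 had their highest DEHP signal on replicate 3, and that at 0.27 on replicate 1. Cdca3, which helps to degrade Wee1, was not led by replicate 1 on the probe set used. It had 6.98 there, against 7.20 and 7.16 on the other DEHP arrays. A dimmer probe set was led by replicate 1, with 8.08, 6.69 and 6.68 on DEHP replicates 1 to 3 (difference 0.74). The dimmest had 4.33, 4.64 and 4.25.

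Centromere and kinetochore genes (6) had a median difference of 0.32, and 1 rose. Spc25, a subunit of the NDC80 complex that grips microtubules, had 7.14, 7.25 and 7.27 in corn oil and 8.42, 7.98 and 7.81 with DEHP. All 3 DEHP arrays were far above corn oil, and it rose by 0.85 ± 0.16, or 1.80-fold (adjusted p = 0.00386). Its second, dimmer probe set showed 0.31. The other measured subunits of the complex were smaller in difference: Nuf2 at 0.45 ± 0.15 with groups apart (adjusted p = 0.0836) and Ndc80 at 0.16 ± 0.10. Cenpe, a kinetochore motor, had 6.59, 6.75 and 6.43 with DEHP against a corn oil mean of 6.01 ± 0.09 (SD, n = 3), and its difference was 0.58 with and without replicate 1 (adjusted p = 0.11 and 0.17). Cenpf, another kinetochore protein, was at 0.14, and Cenpa, the centromeric histone, at 0.19. Dimmer probe sets of Cenpf were at 0.65 and 0.26, and those of Cenpa at 0.55 and -0.08. The Cenpf probe set at 0.65 had 7.21, 6.15 and 6.20 with DEHP and at most 5.94 in corn oil. It was not called (limma adjusted p = 0.0511 over all probe sets).

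In the chromosomal passenger complex, which corrects faulty attachments and guides cytokinesis, 2 of the 3 measured members of the list rose, and the scaffold Incenp, counted with the further G2/M genes, was at 0.09 ± 0.14 (adjusted p = 0.757). By the probe sets used, Birc5 (survivin) had the largest difference of the 43 genes and the largest lead of replicate 1. Its signals were 4.99, 4.55 and 5.46 in corn oil and 7.74, 5.68 and 5.47 with DEHP, so that DEHP replicate 3 was level with the highest corn oil array. It rose by 1.30 ± 0.35, or 2.45-fold (adjusted p = 0.0397), and was at 0.57 ± 0.20 without replicate 1 (adjusted p = 0.114). Aurkb, the kinase of the complex, had 6.18, 5.67 and 6.40 in corn oil and 6.97, 6.66 and 6.31 with DEHP, with overlap. It rose by 0.56 ± 0.15 (adjusted p = 0.0374), and was at 0.40 ± 0.15 without replicate 1 (adjusted p = 0.146). Its second, dimmer probe set was at 0.20, with 4.22, 4.21 and 4.24 in corn oil and 4.69, 4.38 and 4.20 with DEHP. Cdca8 (borealin) had groups apart at 0.49 ± 0.17 (adjusted p = 0.105).

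Spindle proteins and motors (11) had a median of 0.29, and 1 rose. Hmmr, which binds hyaluronan and organises spindle microtubules, had 6.48, 5.98 and 6.21 in corn oil and 7.61, 7.13 and 6.77 with DEHP, with no overlap. It rose by 0.95 ± 0.21, or 1.93-fold (adjusted p = 0.012), and remained at 0.73 ± 0.21 without replicate 1 (adjusted p = 0.0589). Its other 4 probe sets ran from 0.04 to 0.63. The central spindle motor Kif20a and the bundling protein Prc1 were high on replicate 1 only: Kif20a had 5.96, 4.86 and 4.84 against a corn oil mean of 4.81 ± 0.15 (SD, n = 3), and Prc1 8.57, 7.62 and 7.74 against 7.62 ± 0.03. Their differences were 0.40 and 0.36 with that array and 0.03 and 0.06 without it. Nusap1 and Ckap2, both microtubule proteins, were likewise at 0.27 and 0.48 with it and at -0.07 and 0.05 without. For Tpx2, the activator of Aurka, the probe set used had its highest signal on replicate 2 (8.06, against 7.69 and 7.70). The next brightest was also highest there, at 7.51, 7.82 and 7.69 on DEHP replicates 1 to 3. Its dimmest probe sets were highest on replicate 1, with 5.80, 4.87 and 5.06, and with 5.32, 4.74 and 4.87. The motors Kif11, Kif22, Kif4, Kif2c and Kif23 lay between 0.03 and 0.35. Dimmer probe sets of Kif11 (0.56, adjusted p = 0.0304) and Tpx2 (0.54, adjusted p = 0.0462) rose, with p adjusted over all probe sets. Kif11 had 5.95, 5.95 and 5.73 there with DEHP and at most 5.44 in corn oil. The dimmest probe set of Kif11 was at 0.03. Of all 93 probe sets of the 43 genes, 6 were called at 72 h, all higher (2.57% of all probe sets): 1 each of Spc25, Hmmr, Mad2l1, Nek2, Kif11 and Tpx2.

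Of the cleavage furrow genes, Ect2, which is needed for cytokinesis, had groups apart, with 3.97, 3.70 and 3.88 in corn oil and 5.49, 4.26 and 3.99 with DEHP (0.73 ± 0.23, adjusted p = 0.0735). Its partner Racgap1 and the scaffold Anln were at 0.26 and 0.14. Of chromosome structure genes, Mki67, the classical marker of dividing cells, had 5.79, 5.48 and 5.81 in corn oil and 7.04, 5.75 and 5.66 with DEHP. Its difference of 0.46 ± 0.22 (adjusted p = 0.239) was 0.01 ± 0.14 without replicate 1. Top2a, which untangles sister DNA, had 5.53, 5.60 and 5.58 against 5.83, 5.58 and 5.66, a difference of 0.12 ± 0.09, while its other 2 probe sets showed 0.68 and 0.36.

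**Figure D3:**
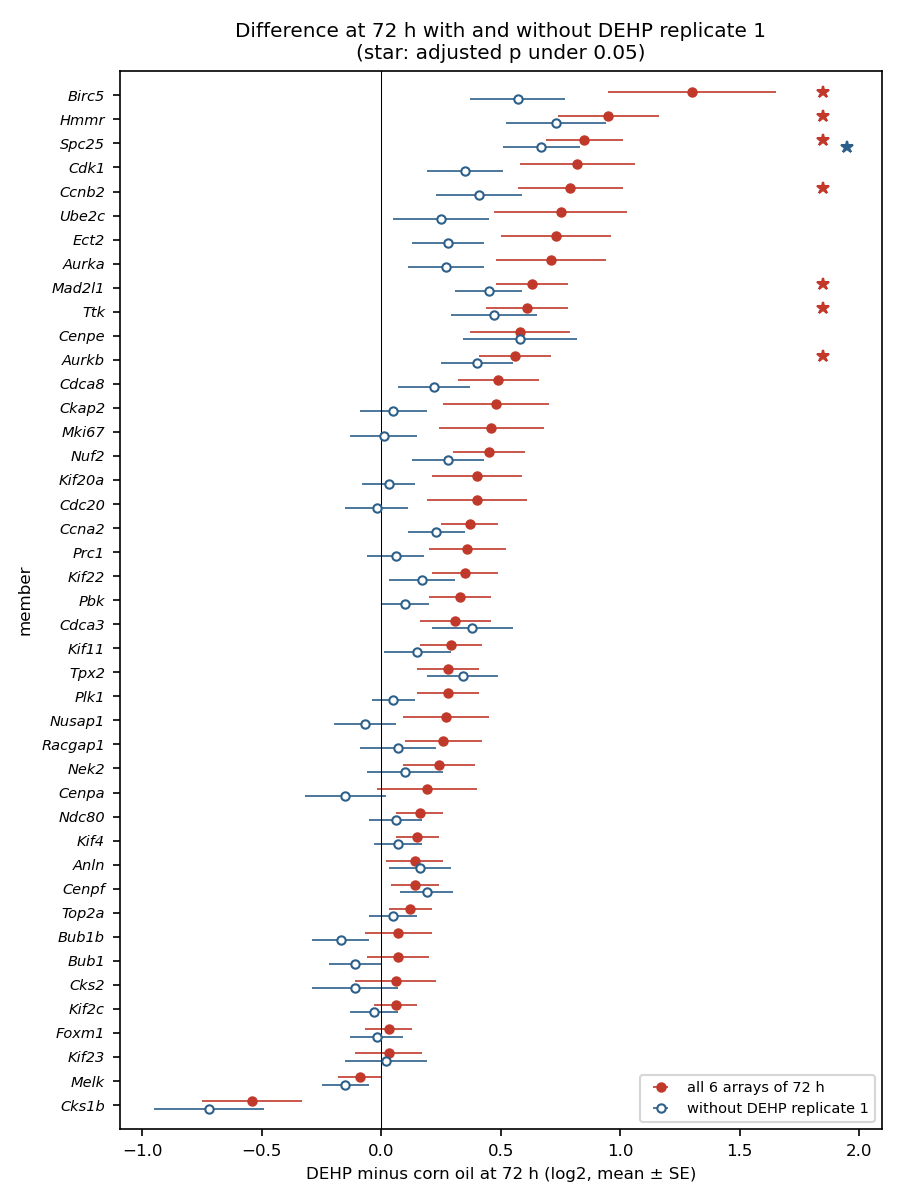
DEHP minus corn oil at 72 h for each member (log2, points, with bars of 1 SE) from all 6 arrays (filled, red) and without DEHP replicate 1 (open, blue); stars mark adjusted p under 0.05. With all arrays 7 members carry a star; without replicate 1 only Spc25 does, and Mki67 moves from 0.46 to 0.01.

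At the earlier times the medians of the list were near 0. At 2 h, 0 genes rose and 1 fell (2.33%; all genes: 0.83% called, 0.616% higher and 0.214% lower), with a median of -0.08 against -0.02 over all genes. At an unadjusted p under 0.05 there were 2, both lower (8.43% of all genes), and 11 of 43 were above 0 (43.2% of all genes). Groups were apart upwards for 1 gene (4.67% of all genes) and downwards for 6 (14%, against 6.72%). At 8 h limma called 0 members (all genes: 4.13%, with 1.28% higher and 2.86% lower), and the unadjusted p of 2 (Cks1b and Cks2) was under 0.05 (15.7% of all genes). The median was 0.02, and 23 of 43 genes were above 0 (42.6% of all genes), with 2 genes apart upwards (5.44%) and 5 downwards (11.6%, against 13.1%). At 24 h limma again called 0 (all genes: 0.297%, with 0.253% higher and 0.044% lower). At an unadjusted p under 0.05 there were 2 (8.13% of all genes), Spc25 (0.41 ± 0.16) and Tpx2 (0.28 ± 0.13). The median was 0.04, 29 of 43 were above 0 (48.9% of all genes), and 2 genes were apart upwards (4.65%, against 6.38%) and 0 downwards (7.47%). At 24 h corn oil replicate 3 was the lowest of all 24 arrays for 12 of 43 genes, against 8.08% of all genes, and the median was -0.03 without it.

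Cks2 was the only member called before 72 h, and its relative Cks1b was also low then. Cks1b and Cks2 encode small adaptors that bind Cdk1, and Cks1b also serves the ubiquitin ligase that removes p27. At 2 h Cks2 had 9.26, 9.24 and 9.35 in corn oil and 8.77, 8.82 and 8.02 with DEHP, well apart. It fell by 0.75 ± 0.17 on the log2 scale (adjusted p = 0.0326), and its second probe set also fell (-0.79, adjusted p = 0.0471 over all probe sets). The call was kept in 2 of 6 fits that left out an array of 2 h (without DEHP replicate 1 or 2), with differences from -0.89 to -0.49. It was lost without DEHP replicate 3 or any of the 3 corn oil arrays. At 8 h Cks2 had 9.58, 9.19 and 9.38 against 8.98, 8.88 and 8.60, again apart (-0.56 ± 0.17, adjusted p = 0.0637). That difference was not called, but the second probe set of Cks2 was called lower at 8 h (-0.67, limma adjusted p = 0.0411 over all probe sets). At 24 and 72 h the differences of Cks2 on the probe set used were 0.20 and 0.06. Cks1b was lower on every DEHP array at 2 h, with 9.46, 9.57 and 9.59 against 9.28, 8.94 and 8.46, and at 8 h, with 9.15, 9.12 and 8.93 against 8.49, 8.84 and 8.29. These differences of -0.65 ± 0.21 and -0.52 ± 0.21 were not called (adjusted p = 0.263 and 0.205). At 72 h Cks1b had the lowest difference of the 43 genes, -0.54 ± 0.21 (adjusted p = 0.148), with overlapping groups: 9.55, 10.46 and 10.04 in corn oil and 9.83, 9.55 and 9.04 with DEHP. It was called lower at 72 h with array weights and without corn oil replicate 1 of that time.

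**Figure D4:**
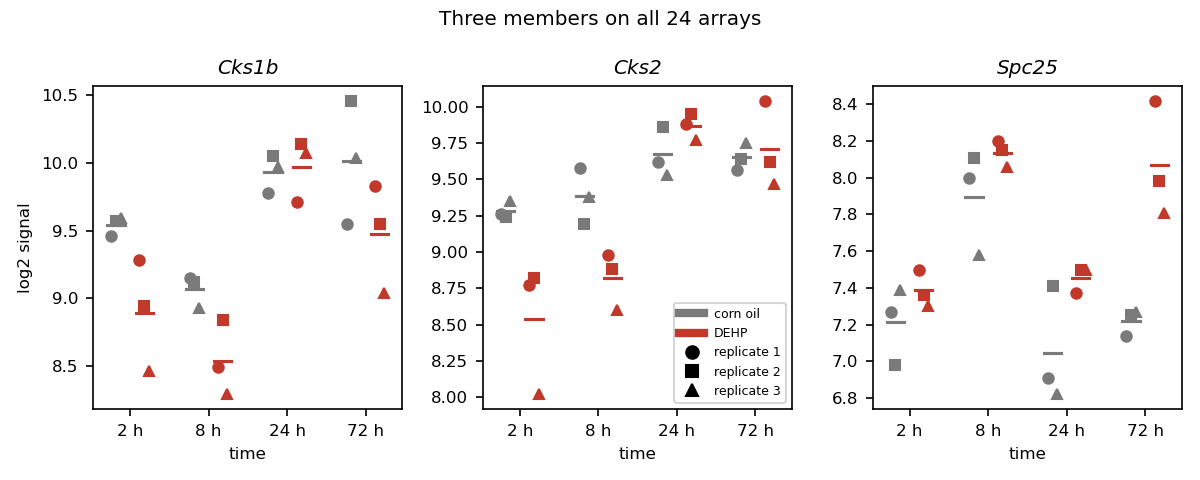
Log2 signal of Cks1b, Cks2 and Spc25 on all 24 arrays (points by compound and replicate number; bars are group means). Both Cks genes are lower on every DEHP array at 2 and 8 h, and Spc25 is higher on every DEHP array at 72 h and high in both groups at 8 h.

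Whether the effect of DEHP differed between times was tested within the same limma model. The effect at 72 h minus that at 24 h was called for 0 of 43 members (0.022% of all genes), with 6 at an unadjusted p under 0.05 (7.66% of all genes). For Spc25 it was 0.44 ± 0.22 (adjusted p = 0.66) and for Birc5 1.21 ± 0.50 (adjusted p = 0.578). An F test over all 4 times called 0 members (2.08% of all genes), with 7 at an unadjusted p under 0.05 (15.2% of all genes). Cks2 was closest (adjusted p = 0.0541). So the rise at 72 h was not shown to differ from the effects at other times. In corn oil, 2 members differed between times (4.65%, against 3.55% of all genes). Spc25 had corn oil means of 7.22, 7.90, 7.05 and 7.22 at 2, 8, 24 and 72 h, highest at 8 h (adjusted p = 0.00705). Cks1b had 9.54, 9.07, 9.94 and 10.01, lowest at 8 h (adjusted p = 0.0282). Both calls were lost without corn oil replicate 2 of 8 h. On that array the Actb probe sets of the 3' and 5' ends differed by 1.46, against 0.50 to 0.82 on the other arrays, and the endothelial and macrophage markers had means of -0.72 and -0.63; their part in the calls was not tested.

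DEHP replicate 1 led the other cell-cycle lists too, by less than it led the 43 genes. Of 43 measured genes of G1/S and DNA replication, 6 rose at 72 h and 0 fell, with a median of 0.14. Over all genes, 1.13% were called higher and 3.05% lower, with a median of -0.03. Without DEHP replicate 1, 2 of the list rose (0.934% of all genes), at a median of 0.12. Mcm6, a helicase subunit, had 7.39, 6.87 and 7.31 in corn oil and 8.28, 8.02 and 7.70 with DEHP, with no overlap (0.81 ± 0.15, adjusted p = 0.00334). The DNA primase Prim1 rose by 0.63 ± 0.12, and both kept the call without replicate 1 (adjusted p = 0.0237 and 0.0298). Mcm5 (0.76), the licensing factor Cdt1 (0.46) and thymidine kinase Tk1 (0.46) lost it (adjusted p = 0.0531, 0.0806 and 0.0764), as did Mcm4. Replicate 1 was the highest of 24 arrays for 17 of these 43 genes (39.5%, against 3.7% of all genes). List means on DEHP replicates 1 to 3 were 0.28, 0.15 and 0.10, against -0.05 to 0.05 in corn oil. At 2 h, 0 genes of this list rose and 2 fell (0.616% and 0.214% of all genes), Mcm10 (-0.91 ± 0.21) and Tk1 (-0.48 ± 0.11). At 8 h, 0 rose and 1 fell (1.28% and 2.86% of all genes), the polymerase subunit Pola2 (-0.37 ± 0.09).

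Of 48 further G2/M genes, 3 rose at 72 h and 0 fell (1.13% and 3.05% of all genes), with a median of 0.15. Without replicate 1, 2 were called, both higher (0.934% of all genes), at a median of 0.05. Replicate 1 was the highest of 24 arrays for 18 of the 48 (37.5%, against 3.7% of all genes). List means on DEHP replicates 1 to 3 were 0.31, 0.07 and 0.02, against -0.07 to -0.02 in corn oil. Hmgb2, a chromatin protein, had 5.55, 4.75 and 5.31 in corn oil and 6.64, 6.42 and 5.94 with DEHP (1.13 ± 0.19, adjusted p = 0.00182). Wee1, the kinase that restrains Cdk1, had 7.32, 6.97 and 6.92 against 7.57, 7.97 and 7.90, with its lowest DEHP signal on replicate 1 (0.74 ± 0.17, adjusted p = 0.0165). The spindle pole gene Aspm rose by 0.68 ± 0.16 and was at 0.68 ± 0.19 without replicate 1 (adjusted p = 0.022 and 0.0517). Of 25 brakes of the cell cycle, 0 rose and 1 fell at 72 h (1.13% and 3.05% of all genes). Cdkn1a (p21, an inhibitor of cyclin-dependent kinases) rose at 2 h by 1.81 ± 0.21 (adjusted p = 3.35e-05) and fell at 72 h by 0.81 ± 0.21 (adjusted p = 0.0328). On DEHP replicates 1 to 3 at 72 h it was 9.0, 8.22 and 8.04, against 8.93, 9.54 and 9.22 in corn oil, so replicate 1 alone reached the corn oil range. Gadd45b, a stress gene that can halt the cycle, rose at 2 h (2.33 ± 0.32) and 8 h (2.29 ± 0.32). Of the 25 brakes, 2 rose and 0 fell at 2 h (0.616% and 0.214% of all genes). At 8 h, 1 brake rose and 0 fell (1.28% and 2.86% of all genes).

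Over the 24 arrays, the genes outside the list whose signal most resembled the mean of the 43 genes were D17H6S56E-5 (r = 0.96), the microtubule regulator Stmn1 (0.93) and Shcbp1 (0.88). Neurl1b, Cenpp, Kif20b, Zwilch, Depdc1a, Ddias and Smc2 followed, at r from 0.84 to 0.88. The arrays share groups and DEHP replicate 1, without which r was 0.86 for D17H6S56E-5, 0.77 for Stmn1, 0.55 for Shcbp1 and between 0.42 (Kif20b) and 0.71 (Ddias) for the other 7. The next highest without that array, after D17H6S56E-5, were Spata3 (0.80) and Kif18b (0.78). With group means subtracted, r was 0.95 for D17H6S56E-5 and 0.90 for Stmn1.

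Markers of other cell types were set beside the lead of DEHP replicate 1, and their part in it was not tested. Over all genes, 1.13% were called higher and 3.05% lower at 72 h. Lymphocyte markers (13 measured of 15) had list means of 0.04, -0.07 and 0.03 on DEHP replicates 1 to 3 (corn oil -0.04 to 0.06). Neutrophil markers (8 of 10) had -0.02, -0.08 and -0.14 (corn oil -0.14 to 0.53). Red blood cell precursor markers (9 of 13) had -0.13, -0.10 and -0.11, all below corn oil (-0.02 to 0.08), and 1 was called lower, the transferrin receptor Tfrc (-1.22 ± 0.26, adjusted p = 0.01; 0.0333 without replicate 1). Macrophage markers (11) were lower with DEHP, with 4 called lower at 72 h and means of -0.45, -0.36 and -0.08, against 0.10 to 0.49 in corn oil. These 4 calls were lost without DEHP replicate 1, and the median difference of the markers went from -0.67 to -0.55. Endothelial markers (8) stood at -0.21, -0.19 and -0.01, against 0.14 to 0.48 in corn oil, with 0 called by limma. Exocrine pancreas markers (8 of 12) were high on DEHP replicate 1, at 1.42, against -0.66 and -0.14 on the other DEHP arrays. Corn oil replicate 1 at 72 h had 1.91 with a mitosis mean of -0.06, and DEHP replicate 1 at 2 h had 3.03 with -0.16. The Actb probe sets at the 3' and 5' ends, a measure of RNA quality, differed by 0.68, 0.65 and 0.65 on DEHP replicates 1 to 3.

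**Figure D5:**
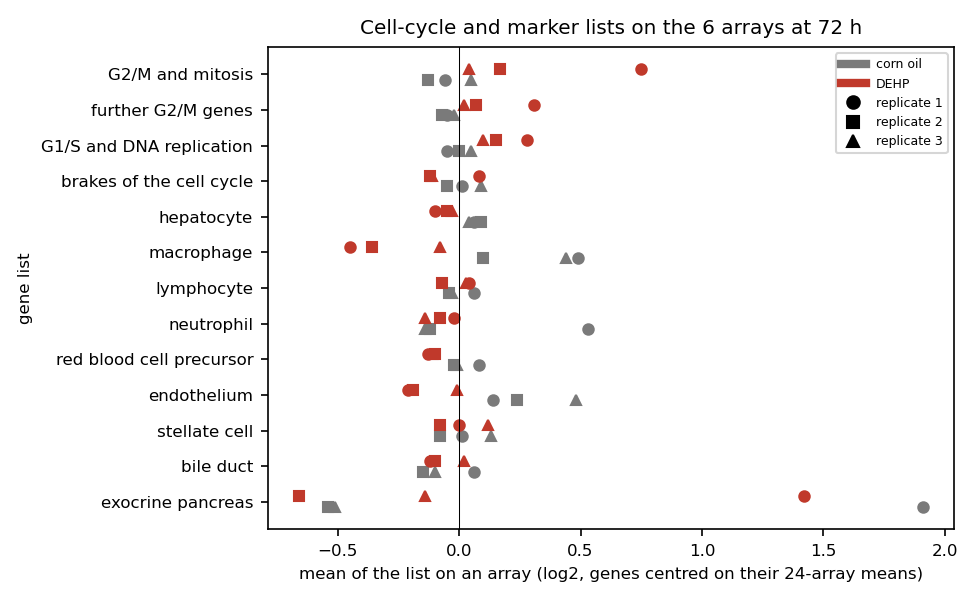
Mean of each cell-cycle and marker list on the 6 arrays at 72 h (log2, each gene centred on its 24-array mean; points by compound and replicate number). DEHP replicate 1 (red circles) is highest for the 3 cell-cycle lists at 0.75, 0.31 and 0.28, and pancreas markers are high on replicate 1 of both compounds at 1.42 and 1.91.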

How the data were processed

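The authors deposited log2 signals for 45101 Affymetrix probe sets on 24 arrays, computed with RMA per the submitters' processing notes, whose version is not given in the sources used here. RNA was biotin-labelled per the labels. The deposited log2 values ran from 2.84 to 14.55 and were used as they were. Probe sets with 1 symbol (34958; 932 had several and 9211 had no annotation row) gave 18194 genes, each through its probe set with the highest mean. With R 4.3.3 and limma 3.58.1, 1 model of 8 group means was fitted over 24 arrays (16 residual and 6.21 prior degrees of freedom), with Benjamini-Hochberg adjustment over all genes at 0.05. The script was tested on simulated data. Precision rests on 3 arrays per group. Arrays have no sequencing depth, and no detection calls were used. All values are differences within a probe set. The rule for named genes gave values per array for called members, fixed members (Mki67, Top2a, Cdk1, Plk1, Birc5, Foxm1) and the extremes at 72 h; other members given per array were added after their values were seen. The members, lists and tests were chosen with earlier results of these data known. Alternatives covered blocks, filters, probe sets, variances, scaling, samples, threshold and each array left out.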

Additional observations from a re-analysis of the deposited data

Results flagged for a closer look

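Ect2, a gene of the cleavage furrow, stands out because its DEHP arrays lay on opposite sides of corn oil at 2 h and 72 h, though neither difference was called. At 2 h the sides nearly touched, with 4.02, 4.25 and 4.04 in corn oil and 4.02, 4.02 and 3.90 with DEHP (-0.12 ± 0.23, adjusted p = 0.951). The difference was 0.43 ± 0.23 at 8 h and 0.73 ± 0.23 at 72 h (adjusted p = 0.403 and 0.0735). The direct difference between 2 h and 72 h was not tested. The limma F test of the DEHP effect between the 4 times gave an adjusted p of 0.312. Without DEHP replicate 1 the difference at 72 h was 0.28 ± 0.15. The signal of this gene was dim, with group means near 4.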

How the results depend on the processing

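The 72 h count of 7 called members depended most on single arrays, between 1 and 11 when each of the 24 arrays was left out in turn. It was 3 among genes above the 40th percentile (16 members) and 1 at an adjusted p under 0.01. From the arrays of that time alone it was 3 (Hmmr, Cenpe and Spc25). With array weights it was 8 (7 higher, with Cenpe among them, and Cks1b lower). The 2 h count of 1 was 0 with array weights, median centring, arrays of that time alone or an adjusted p under 0.01 (0 to 1 leaving out arrays). The 8 h count of 0 was 1 (Cks2) with a replicate block, with first replicates against later ones as a block, above the 40th percentile or with the mean of all probe sets (0 to 1 leaving out arrays). The 24 h count and that of 72 h against 24 h were 0 in every fit that left out an array. The F test between times called 1 member (Cks2) rather than 0 with either block, above the 40th percentile, with the mean of all probe sets, with trend and robust variances or with quantile normalization (0 to 1 leaving out arrays). The corn oil F test called 1 rather than 2 with the mean of all probe sets, without both arrays numbered 14 and at an adjusted p under 0.01 (0 to 2 leaving out arrays, with 0 without corn oil replicate 2 of 8 h). Leaving out arrays gave medians from -0.11 to -0.02 at 2 h, -0.01 to 0.04 at 8 h, -0.03 to 0.12 at 24 h and 0.10 to 0.47 at 72 h; the 8 h median was -0.03 above the 40th percentile. Foxm1 at 72 h turned from 0.03 to -0.05 with array weights and to between -0.04 and 0.00 when 1 array was left out (0.00 and -0.04 without the first or second corn oil array, -0.02 and -0.01 without the first or second DEHP array). Replicate numbers gave no evident pairs. Same-numbered arrays correlated with r from -0.35 to 0.14 over 12 pairs, and 7 of 24 arrays correlated best with their own number. In the titles, every first replicate carries a lower array number than all later replicates, and the alternatives included this split as a block. With the replicate block, 6 members were called at 72 h (without Ccnb2). The causes were not tested. Dim signal limits most members, of which 16 of 43 lay above the 40th percentile.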
